A study of Equus caballus with 8 samples.

Results

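The genes described here are TMEM213 and 8 subunits of the vacuolar proton pump (V-ATPase) in the endometrium of the mare. They are the tissue-restricted isoforms ATP6V0A4, ATP6V0D2 and ATP6V1B1, the ubiquitous counterparts ATP6V0A1, ATP6V0A2, ATP6V0D1 and ATP6V1B2, and the catalytic subunit ATP6V1A. These 9 genes were matched by symbol to NCBI Gene IDs among the 24942 of the deposited count table. The set was chosen from earlier results of the same comparison of pregnancy with the cycle, in which TMEM213 and ATP6V0A4 stood out. Their differences between the groups are therefore given as a description, without a test. All 9 have a row in the table, and 8 of them passed the filter on low counts. ATP6V1B1 did not.

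Messenger RNA was sequenced from transcervical biopsies of 4 healthy Bavarian Warmblood mares, taken on Day 12 either of a pregnancy or of a cycle without one. Every mare was sampled once in each state, in random order, giving 4 pregnant and 4 cyclic libraries that form 4 pairs. An injection of 1500 IU human chorionic gonadotropin brought on ovulation, and the labels state that all mares were inseminated, with semen of 1 stallion; whether this held in the cycle that gave the control biopsy is not said separately. The uterus was flushed before each biopsy, and pregnancy had been seen by ultrasound before the flush. The ages of the mares are not given in the labels.

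The V-ATPase uses ATP to move protons across membranes. Its V1 sector, in the cytosol, splits ATP at sites formed by subunits A and B, and its V0 sector, in the membrane, carries the protons past subunit a, with subunit d joining the rotor to V1. Most cells use it to acidify lysosomes and endosomes. Kidney intercalated cells, the epididymis and osteoclasts also place pumps on the cell surface, built in part from restricted isoforms, and in humans loss of ATP6V0A4 or ATP6V1B1 causes distal renal tubular acidosis. TMEM213 encodes a small membrane protein of little known function, whose transcript in human kidney is found in intercalated cells.

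Total counts were 15.5 to 16.5 M in the cyclic libraries and 16.4 to 16.7 M in 3 of the pregnant ones, while mare 1 had only 9.81 M when pregnant. Levels are given in CPM, counts per M reads, with each library's size adjusted by edgeR's TMM factor. Where a library shows 0 reads of a gene, as many as 3 could be missed, equal to 0.298 CPM for mare 1 when pregnant and to between 0.169 and 0.193 CPM elsewhere (counting error only). Among markers of the cell types a biopsy can hold, 10 of 12 endothelial, 5 of 9 stromal and 5 of 8 smooth muscle genes rose in pregnancy, while 0 of 13 epithelial markers rose and 3 fell (0 rises by edgeR, with 1 higher at an unadjusted p under 0.05; DESeq2 and limma-voom each called 1 rise). Over all genes tested, 8.53% rose and 8.19% fell. The summed epithelial markers ranged from 2309 to 2787 CPM in the cycle and from 2189 to 2500 CPM in pregnancy. The summed endothelial markers ranged from 697 to 1367 and from 1077 to 1583 CPM. The overlap of these endothelial sums leans on ROBO4, which was not called and was high in mare 4 in both states. For mares 1 to 4 ROBO4 stood at 226, 256, 176 and 786 CPM in the cycle and 287, 279, 191 and 717 CPM in pregnancy. Of the 12 endothelial markers, 10 had every pregnant value above every cyclic value, as had 5 of 8 smooth muscle, 4 of 9 stromal and 1 of 13 epithelial markers. Over all genes tested, 10.7% had groups that did not overlap, in either direction. Of the conceptus markers, CDX2, HAND1, AFP and TTR had 0 counts in every library, and 1 of the 6 tested rose (TFAP2C, log2 fold change 1.03). The summed level of the conceptus markers was 16.7 to 37.3 CPM in the cycle and 17.7 to 23.5 CPM in pregnancy. APOA1, which was not called, was lower in pregnancy in every mare and weighs on that sum. It had 23.8, 15.3, 3.79 and 8.30 CPM in the cyclic and 3.18, 5.22, 3.32 and 2.96 CPM in the pregnant libraries of mares 1 to 4. The other tested conceptus markers had log2 fold changes from 0.24 to 1.03. The part of these markers in the results below was not tested.

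TMEM213 (Gene ID 100066723) went from near the detection limit to a clear signal. In the cyclic libraries of mares 1 to 4 it had 22, 26, 10 and 4 reads, or 1.42, 1.63, 0.621 and 0.248 CPM. In the pregnant libraries it had 425, 434, 251 and 263 reads, or 42.3, 28.0, 14.1 and 15.6 CPM. Every pregnant library was above every cyclic one. The mean was 0.980 ± 0.654 CPM (SD, n = 4) in the cycle and 25.0 ± 13.1 CPM (SD, n = 4) in pregnancy, with a log2 fold change of 4.68 ± 0.21 (SE). The fold within a mare was 27.4, 15.9, 19.0 and 41.6 in mares 1 to 4. In a bulk biopsy, a change in the number of cells of a type and a change in RNA per cell cannot be told apart.

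ATP6V0A4 (100064797), the a4 isoform of the membrane subunit a, moved in the same way. The cyclic libraries of mares 1 to 4 held 2.58, 2.07, 1.68 and 0.930 CPM, from 15 to 40 reads. The pregnant libraries held 26.7, 32.9, 12.7 and 15.5 CPM, from 226 to 511 reads. The groups did not overlap. The means were 1.81 ± 0.695 and 22.0 ± 9.51 CPM (SD, n = 4 each), the log2 fold change was 3.57 ± 0.19 (SE), and the fold within a mare ran from 7.11 in mare 3 to 15.0 in mare 2. By size of the rise, TMEM213 was number 4 and ATP6V0A4 number 9 of the 15342 genes tested.

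The other restricted isoforms did not share this pattern. ATP6V0D2 (100049996), the d2 isoform known from osteoclasts, kidney and epididymis in the mouse, had 7.73, 25.5, 24.8 and 5.45 CPM in the cyclic and 10.4, 29.5, 41.4 and 7.05 CPM in the pregnant libraries of mares 1 to 4. Each mare was higher in pregnancy, by 1.16-fold to 1.67-fold, but the groups overlapped widely, because mares 2 and 3 were high and mares 1 and 4 low in both states. Its log2 fold change was 0.45 ± 0.11 (SE). ATP6V1B1 (100050282), the B1 isoform that partners a4 in kidney intercalated cells, had 0 reads in all 8 libraries. Over the 124 M counts of the series this allows up to 0.0242 CPM, from 3 counts. The annotation used for counting is not given, so whether reads could be assigned to ATP6V1B1 was not tested. Of all genes listed, 17.4% had 0 reads in every library.

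**Figure D1:**
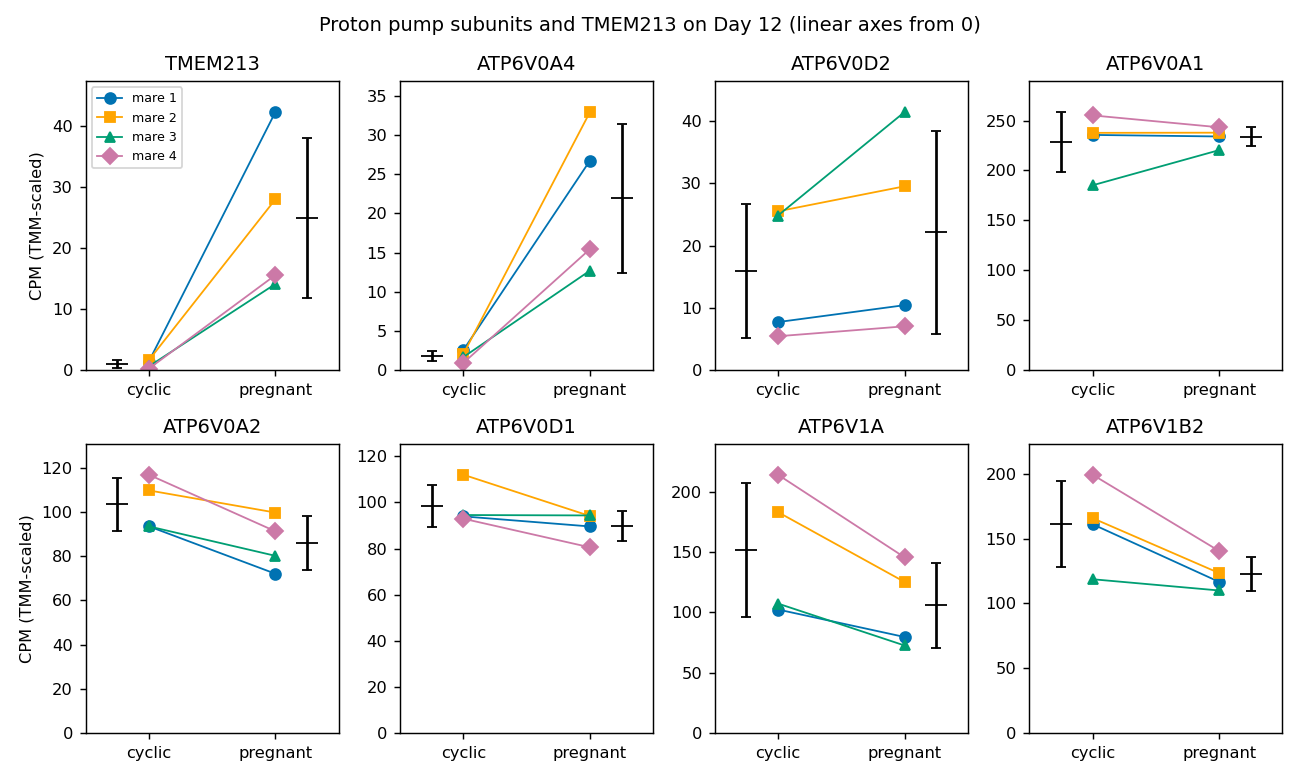
TMM-scaled CPM (y, linear from 0) of the 8 genes with reads, in the cyclic and pregnant library of each mare (coloured lines join the libraries of 1 mare), with group mean and SD in black (n = 4). TMEM213 and ATP6V0A4 rose from under 3 CPM in every cyclic library to 12.7 CPM or more in every pregnant one, whereas ATP6V0D2 differed mainly between mares and the lower row was lower in pregnancy.

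The ubiquitous subunits held steady or were lower in pregnancy. ATP6V1A (100061223), the catalytic A subunit, had 102, 183, 107 and 214 CPM in the cyclic and 79.5, 125, 72.5 and 146 CPM in the pregnant libraries of mares 1 to 4. All 4 mares were lower in pregnancy, although the groups overlapped because mares 2 and 4 were high in both states. The means were 152 ± 55.7 and 106 ± 35.4 CPM (SD, n = 4 each), with a log2 fold change of -0.51 ± 0.07 (SE). ATP6V1B2 (100055525), the widespread B isoform and the counterpart of ATP6V1B1, had 161, 166, 119 and 199 CPM in the cycle and 117, 123, 110.0 and 140.5 CPM in pregnancy. It too was lower in 4 of 4 mares, least in mare 3, and its log2 fold change was -0.38 ± 0.08 (SE).

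Of the other a isoforms, ATP6V0A2 (100061140), the a2 isoform of Golgi and endosomes, had 93.6, 109.8, 93.5 and 117 CPM in the cycle and 72.1, 99.8, 80.2 and 91.3 CPM in pregnancy. It was lower in 4 of 4 mares, with a log2 fold change of -0.27 ± 0.07 (SE). ATP6V0A1 (100052802), the a1 isoform, had 236, 238, 185 and 255 CPM in the cycle and 234, 238, 220 and 243 CPM in pregnancy. It was higher in 2 mares and lower in 2, with a log2 fold change of 0.04 ± 0.08 (SE). ATP6V0D1 (100053316), the widespread d isoform, had 94.0, 112, 94.5 and 93.0 CPM in the cycle and 89.6, 94.1, 94.4 and 80.5 CPM in pregnancy, and its log2 fold change was -0.13 ± 0.07 (SE). For each of the ubiquitous members the cyclic and pregnant values overlapped.

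In the fit over all genes, 6 of the 8 tested members were called at an adjusted p below 0.05, TMEM213, ATP6V0A4 and ATP6V0D2 as higher and ATP6V1A, ATP6V1B2 and ATP6V0A2 as lower. Of all 15342 genes, 16.7% were called, 8.53% as higher and 8.19% as lower. The values of 2 members did not overlap between the groups, against 10.7% of all genes. Because these members were chosen from this contrast, nothing is read from their counts. Without the mare as block 2 were called, and 3 were when mare 1 was left out. The median log2 fold change was -0.04 over the 8 tested members and 0.00 over all genes, and the 3 tested restricted genes ran from 0.45 to 4.68 and the 5 ubiquitous ones from -0.51 to 0.04.

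Reads of isoforms of 1 subunit can be set against each other within a library, where library size cancels. Shares of reads also depend on transcript length, so they are compared between groups and not between isoforms. ATP6V0A4 made up 0.664, 0.520, 0.492 and 0.220% of the reads of the 4 a isoforms in the cyclic libraries of mares 1 to 4, and 6.60, 7.61, 3.32 and 3.79% in the pregnant ones. The group means were 0.474% ± 0.186 and 5.33% ± 2.10 (SD, n = 4 each), and every pregnant library was above every cyclic one. Over the same libraries the share of ATP6V0A2 went from 26.7% ± 1.70 to 21.0% ± 2.34, that of ATP6V0A1 from 58.7% ± 2.97 to 57.5% ± 1.95 and that of TCIRG1, the a3 isoform, from 14.1% ± 2.64 to 16.1% ± 2.13 (SD, n = 4 each). In every library of both states ATP6V0A4 had the fewest reads of the 4.

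ATP6V0D2 held 7.60, 18.5, 20.8 and 5.54% of the reads of the d isoforms in the cycle and 10.4, 23.9, 30.5 and 8.05% in pregnancy. Each mare had a higher share in pregnancy, while mares 2 and 3 stayed above mares 1 and 4. The log2 ratio of ATP6V0D2 to ATP6V0D1 reads was higher in pregnancy by 0.57 on average (SD of the 4 differences 0.12), and that of ATP6V0A4 to ATP6V0A1 by 3.52 (SD 0.66), both with 0.5 added to each count. All B subunit reads belonged to ATP6V1B2.

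**Figure D2:**
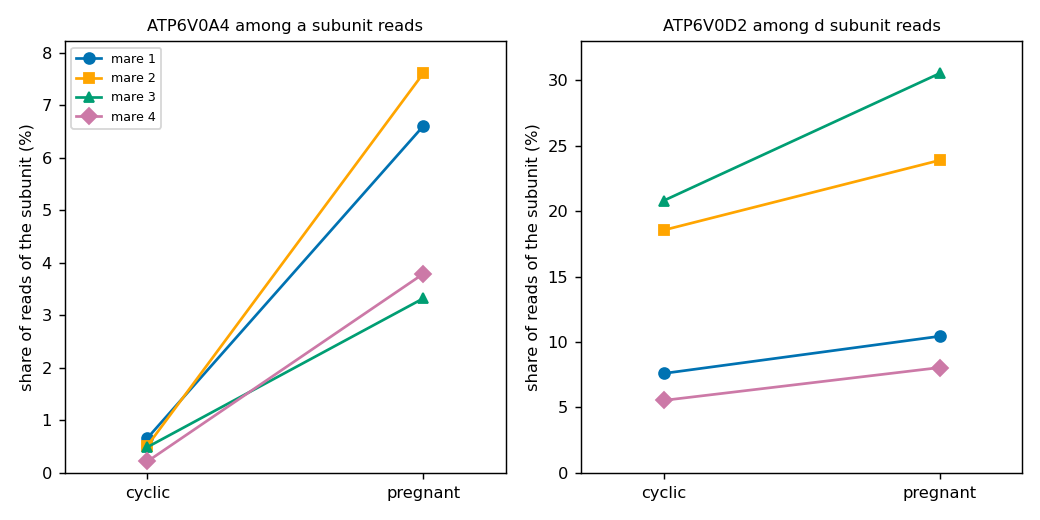
Share of reads (y, percent, from 0) held by ATP6V0A4 among the 4 a isoforms (left) and by ATP6V0D2 among the d isoforms (right) in the cyclic and pregnant library of each mare. The share of ATP6V0A4 was at most 0.664% in the cycle and at least 3.32% in pregnancy, and the lines of ATP6V0D2 rise side by side from levels that differ between mares.

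TMEM213 and ATP6V0A4 are next to each other in the genome. In the RefSeq gene table of the TB-T2T horse assembly 0 protein-coding genes separate them, and their annotated spans overlap. The libraries do not keep the strand and the counting rule is not given, so reads of the shared stretch cannot be assigned with certainty and both values carry that limit. Their reads did not move in 1 fixed proportion. The ratio of TMEM213 to ATP6V0A4 reads was 0.290 to 0.791 in the cyclic and 0.849 to 1.58 in the pregnant libraries, without overlap. Its log2 value was -1.09 ± 0.63 in the cycle and 0.15 ± 0.38 in pregnancy (SD, n = 4 each). Within mares the log2 ratio was higher in pregnancy by 1.24 on average (SD of the differences 0.77). It moved least in mare 2, where the ratio was 0.791 in the cycle and 0.849 in pregnancy. The cyclic ratios rest on 4 to 26 reads of TMEM213.

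The genes on either side of this pair did not rise with it. Of the 5 nearest protein-coding genes on each side, looked up after the values of the pair were known, 8 were tested, 0 rose and 2 fell by edgeR at an adjusted p below 0.05. The shares over all genes were 8.53% and 8.19%. None was higher at an unadjusted p under 0.05 (0 of 8), and DESeq2 and limma-voom each called 0 rises. SVOPL, beside ATP6V0A4, had 13.4 ± 3.62 and 15.4 ± 1.52 CPM (adjusted p = 0.405), and KIAA1549, beside TMEM213, had 35.7 ± 8.54 and 33.3 ± 5.24 CPM (adjusted p = 0.590; SD, n = 4 each). TRIM24 fell by 0.43 (adjusted p = 0.00384) and UBN2 fell by 0.85 (adjusted p = 0.00674) on the log2 scale. The log2 fold changes of the 8 neighbours ran from -0.85 to 0.23.

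**Figure D3:**
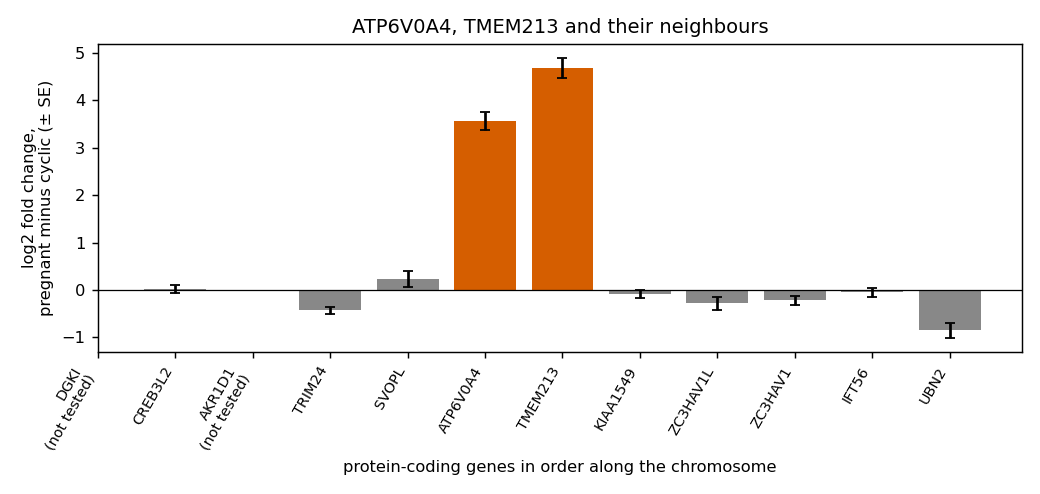
Log2 fold change, pregnant minus cyclic (y, bars with SE), of ATP6V0A4, TMEM213 (orange) and the protein-coding genes next to them (grey), in their order along the chromosome in the RefSeq gene table; DGKI and AKR1D1 were below the low-count filter. The pair stands at 3.57 and 4.68, while its 8 tested neighbours lie between -0.85 and 0.23.

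The rest of the pump changed little. Of 18 further genes for subunits and accessory proteins, 15 were tested and 1 rose, against 8.53% of all genes. Their log2 fold changes ran from -0.21 to 0.45, with a median of -0.01. The riser was TCIRG1, the a3 isoform, best known from osteoclasts. It went from 54.0 ± 5.10 CPM to 65.4 ± 6.57 CPM (SD, n = 4 each; log2 fold change 0.27 ± 0.07, adjusted p = 0.0219 by edgeR's quasi-likelihood test). Its call was lost without the mare block, without mare 1 and without mare 2, the adjusted p over 11 alternatives running from 0.0199 to 0.190. Among 7 tested V1 genes 0 were called by edgeR or limma-voom and 1 by DESeq2, and 1 had an unadjusted p under 0.05. The gene in both cases was ATP6V1C2, a restricted isoform of the stator subunit C.

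ATP6V1C2 and ATP6V1G1 are given as those with the most reads among these 7 further V1 genes. ATP6V1C2 had 112, 101, 88.8 and 92.1 CPM in the cycle and 163, 96.8, 154 and 130 CPM in pregnancy. It was higher in mares 1, 3 and 4 and lower in mare 2. Its log2 fold change was 0.45 ± 0.13 (SE; adjusted p = 0.0566), and it was called by DESeq2 (adjusted p = 0.0125) and without mare 2 (adjusted p = 0.00505), within a range of 0.00505 to 0.195 over 11 alternatives. ATP6V1G1, a stalk subunit, had 64.7 ± 9.91 and 69.0 ± 3.12 CPM (adjusted p = 0.419). ATP6V1G3, the G isoform of kidney intercalated cells, had 1 read in the 8 libraries together, and ATP6V1E2, known from testis, had 0.

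**Figure D4:**
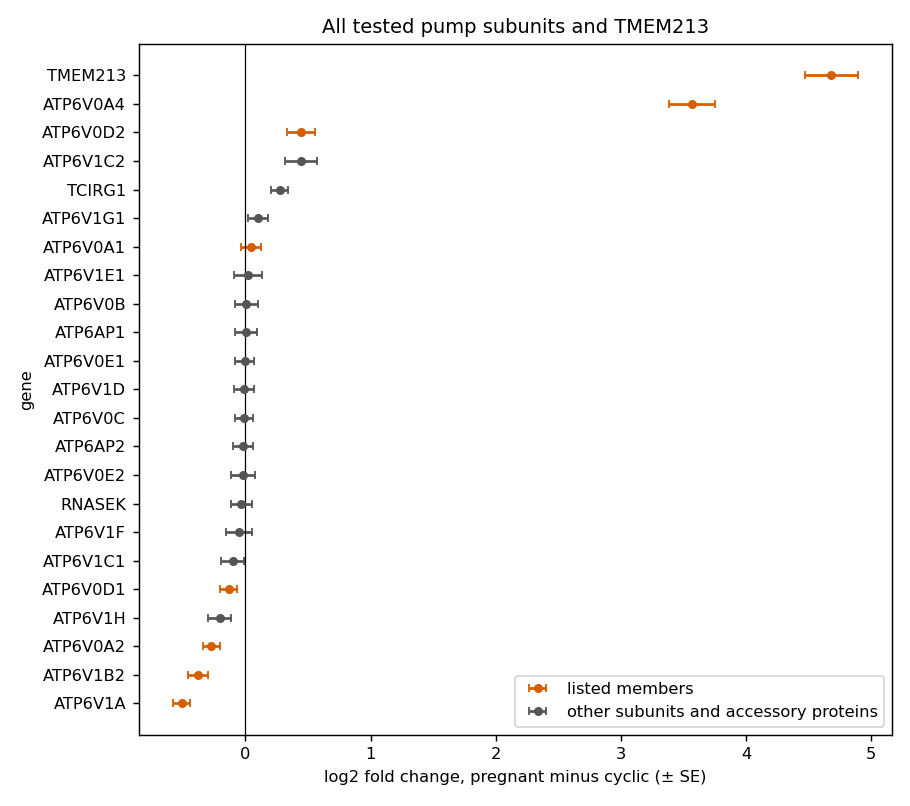
Log2 fold change, pregnant minus cyclic (x, points with SE), of every tested pump subunit, accessory protein and TMEM213, in order of size; members in orange, other genes in grey. TMEM213 and ATP6V0A4 stand apart at 4.68 and 3.57, and all other genes lie between -0.51 and 0.45.

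Of 10 tested factors that assemble or regulate the pump, 0 rose and 2 fell by edgeR, against 8.53% and 8.19% of all genes. In edgeR 3 of the 10 had an unadjusted p under 0.05, and DESeq2 and limma-voom each called 2. DMXL1 and DMXL2, the rabconnectin subunits that help V1 join V0, went from 45.4 ± 12.6 to 30.2 ± 6.83 CPM (adjusted p = 0.00234) and from 6.59 ± 2.68 to 4.00 ± 1.20 CPM (adjusted p = 0.0144; SD, n = 4 each). Without the mare block both calls were lost. The adjusted p of DMXL1 ran from 2.29e-05 to 0.195 over 11 alternatives and that of DMXL2 from 0.00943 to 0.256, the block-free fit giving the highest in each case. Leaving out mare 1 or mare 2 also ended the call of DMXL2 (adjusted p of 0.0692 and 0.0660).

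Genes of kidney intercalated cells and of airway ionocytes, the cell types in which ATP6V0A4 is best known, were present in part: of 21 listed, 11 passed the low-count filter, 9 did not and 1 had no matching ID. FOXI1, the forkhead factor that switches on ATP6V0A4 and ATP6V1B1 in the mouse, had 0 reads in every library, as did FOXI2, FOXI3 and the anion exchanger SLC4A1. Other genes of the list were clearly read: TFCP2L1, a transcription factor, had 36.3 ± 13.9 and 29.9 ± 7.81 CPM in the cycle and in pregnancy, HEPACAM2 had 9.57 ± 1.74 and 11.4 ± 3.04 CPM, and CFTR, the chloride channel abundant in ionocytes, had 16.9 ± 5.79 and 10.9 ± 8.12 CPM (SD, n = 4 each). CFTR was not called (log2 fold change -0.82 ± 0.36 SE, adjusted p = 0.216) but was called lower by DESeq2 (adjusted p = 0.0165) and without mare 2 (adjusted p = 0.00195), within a range of 0.00195 to 0.573 over 11 alternatives. The other uncalled genes were read at low levels, with group means from 0.374 to 1.76 CPM. RHCG, SLC26A4, CA2 and STAP1 had log2 fold changes of 1.42, 0.86, 0.71 and 0.29, and INSRR had -0.13. The median over the tested genes of the list was 0.64, against 0.00 over all genes. Of the 11 tested genes of this list 3 rose and 0 fell, against 8.53% and 8.19% of all genes (edgeR; 0 lower and 4 higher at an unadjusted p under 0.05; DESeq2 called 2 rises and 1 fall, limma-voom 3 rises and 0 falls). ADGRF5, an adhesion receptor that endothelium also carries, rose from 25.8 ± 5.07 to 40.7 ± 10.8 CPM (adjusted p = 0.00415), beside the rise of endothelial markers given above. PDE1C, a phosphodiesterase, rose from 4.92 ± 0.868 to 9.69 ± 3.34 CPM (adjusted p = 0.0245), and RHBG, an ammonia transporter, rose from 1.46 ± 0.238 to 2.47 ± 0.0924 CPM (adjusted p = 0.0381; SD, n = 4 each). RHBG was called in 5 of 11 alternatives and lost in each that left out 1 mare, PDE1C lost its call when mare 1 (adjusted p = 0.118) or mare 2 (adjusted p = 0.0636) was left out, and without the mare block all 3 were lost (adjusted p 0.119 for ADGRF5, 0.0784 for PDE1C and 0.0993 for RHBG). Over the 11 alternatives the adjusted p ran from 0.000119 to 0.119 for ADGRF5, from 0.00581 to 0.118 for PDE1C and from 0.0326 to 0.168 for RHBG.

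Other transporters of protons, bicarbonate and chloride moved both ways, with 2 rising and 3 falling of 14 tested. Of all genes, 8.53% rose and 8.19% fell. ATP12A, the non-gastric proton-potassium pump, is another ATP-driven proton exporter. It had 2.19, 2.95, 4.41 and 3.47 CPM in the cycle and 10.2, 7.03, 13.2 and 7.46 CPM in pregnancy, so that every pregnant library was above every cyclic one (log2 fold change 1.52 ± 0.19, adjusted p = 0.00129, called in all 11 alternatives with adjusted p of 1.50e-07 to 0.0254). CLCN5 and CLCN3, chloride-proton exchangers that work beside the V-ATPase in endosomes, fell from 13.3 ± 2.56 to 6.99 ± 0.945 CPM (adjusted p = 0.00366) and from 105 ± 15.4 to 74.8 ± 5.23 CPM (adjusted p = 0.00334). SLC26A3, a chloride-bicarbonate exchanger, fell from 29.6 ± 19.5 to 13.1 ± 10.5 CPM (adjusted p = 0.00343; SD, n = 4 each). Without the mare block CLCN3 (adjusted p = 0.0538) and SLC26A3 (adjusted p = 0.436) lost their calls, each at the highest value of its 11 alternatives.

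Lysosomal genes, which most cells need for the same organelle that the ubiquitous pump acidifies, were also divided. Of 21 tested, 3 rose and 3 fell, against 8.53% and 8.19% of all genes. The median log2 fold change was -0.12, against 0.00 over all genes. NPC2, a cholesterol carrier, fell from 451 ± 120 to 326 ± 106 CPM (adjusted p = 0.0167). TFEB, a master regulator of lysosomal genes that include V-ATPase subunits, fell from 89.1 ± 17.1 to 68.2 ± 17.5 CPM (adjusted p = 0.00429), and its relative MITF rose from 20.3 ± 3.88 to 35.5 ± 5.99 CPM (adjusted p = 0.00263; SD, n = 4 each). MITF was called in all 11 alternatives. Without the mare block TFEB (adjusted p = 0.338) and NPC2 (adjusted p = 0.394) lost their calls, at the highest values of their alternatives, and NPC2 also lost its call without mare 3 (adjusted p = 0.0668, within a range of 0.000337 to 0.394). Without mare 3 the count for the list was 3 in place of 6.

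Differences between mares are not what the members were chosen on, and they were tested in the same fit with the 3 mare terms together. Of the 8 tested members, 5 differed between mares at an adjusted p below 0.05, against 15.9% of all genes. ATP6V0D2 differed most, its mean over both states being 9.08, 27.5, 33.1 and 6.25 CPM in mares 1 to 4, a 5.30-fold range (adjusted p = 9.31e-05 by edgeR's quasi-likelihood test). ATP6V1A came next, with 90.9, 154, 89.9 and 179.8 CPM (2.00-fold, adjusted p = 0.000566). The order of the mares was not shared: mares 2 and 3 were high for ATP6V0D2, and mares 2 and 4 for ATP6V1A.

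TMEM213 was highest in mare 1, at 21.8 CPM, and lowest in mare 3, at 7.37 CPM (2.96-fold, adjusted p = 0.0119). ATP6V0A4 was highest in mare 2, at 17.5 CPM, and lowest in mare 3, at 7.19 CPM (2.43-fold, adjusted p = 0.0237), and ATP6V1B2 ranged 1.49-fold (adjusted p = 0.0455). For TMEM213 and ATP6V0A4 these means over both states rest mostly on the pregnant libraries, whose high values led to their choice. In the cycle TMEM213 was highest in mare 2 (1.63 CPM) and lowest in mare 4 (0.248 CPM). ATP6V0A4 was then highest in mare 1 (2.58 CPM) and lowest in mare 4 (0.930 CPM). Without mare 1 only ATP6V0D2 and ATP6V1A passed, and the adjusted p was 0.0785 for TMEM213, 0.0598 for ATP6V0A4 and 0.0704 for ATP6V1B2. ATP6V1B2 also missed the threshold with library totals, with limma-voom and without mare 3 or 4 (adjusted p up to 0.155). ATP6V0A2 (adjusted p = 0.0580), ATP6V0A1 (0.240) and ATP6V0D1 (0.277) did not pass, although ATP6V0A2 passed without the low-count filter (adjusted p = 0.0435), within a range of 0.0435 to 0.206. Of the 15 further subunit genes 0 differed between mares by edgeR, against 15.9% of all genes, and 0 by DESeq2 or limma-voom. In edgeR 4 of them had an unadjusted p under 0.05.

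Because ATP6V0D2 is used by macrophages and osteoclasts, their markers were set beside it. CSF1R, the receptor that defines macrophages, had 81.1, 41.3, 51.3 and 60.7 CPM in the cycle and 67.4, 52.3, 50.3 and 60.2 CPM in pregnancy for mares 1 to 4, so that mares 2 and 3, which were high for ATP6V0D2, were the lowest for CSF1R in both states. The other markers did not share 1 order. ADGRE1 was also lowest in mares 2 and 3, at 3.96 and 6.64 CPM in the cycle and 9.48 and 5.23 CPM in pregnancy. CD68 and MRC1 had mares 2 and 3 lowest in the cycle only, and MMP9 had them highest in the cycle only. CD14 was highest in mares 2 and 3 in pregnancy, at 50.1 and 45.0 CPM, but lowest in mare 2 in the cycle, at 27.1 CPM. AIF1 was highest in mares 2 and 3 in the cycle, at 2.32 and 2.17 CPM, but lowest in mare 3 in pregnancy, at 2.08 CPM. Of 11 tested markers 3 rose and 0 fell (edgeR; 0 lower at an unadjusted p under 0.05, and 0 falls by DESeq2 or limma-voom), with CD14 (adjusted p = 0.00469) and ACP5 (adjusted p = 0.00575) at the smallest p. The shares over all genes were 8.53% for rises and 8.19% for falls. ACP5, the osteoclast acid phosphatase, is also uteroferrin, a secretion of equine uterine glands, and it took most of the summed list, which was 579 to 884 CPM in the cycle and 933 to 1329 CPM in pregnancy. Without ACP5 the sum was 218 to 292 CPM in the cycle and 288 to 304 CPM in pregnancy. Of the osteoclast markers, CTSK, a collagen-cleaving protease, rose from 84.4 ± 3.61 to 110.6 ± 12.1 CPM (SD, n = 4 each; adjusted p = 0.00991), without overlap of the groups, while DCSTAMP, CALCR and OCSTAMP had at most 3, 2 and 5 reads in a library. The part of these markers in the values of ATP6V0D2 was not tested.

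To see how members varied together apart from the contrast, each group's mean was taken from the log2 CPM and the deviations were correlated over the 8 libraries, as a description. The points share mares and library sizes. TMEM213 and ATP6V0A4 deviated together (r = 0.89), within the limit of their overlapping spans, whereas ATP6V0D2 followed neither (r = 0.17 and 0.16). The ubiquitous ATP6V0A1 and ATP6V1B2 (r = 0.96) and ATP6V0A2 and ATP6V1A (r = 0.89) went together, and the r of these 4 genes with ATP6V0A4 ran from -0.24 to -0.05. ATP6V0D2 was related to ATP6V0D1 (r = 0.75) and inversely to ATP6V1B2 (r = -0.67).

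**Figure D5:**
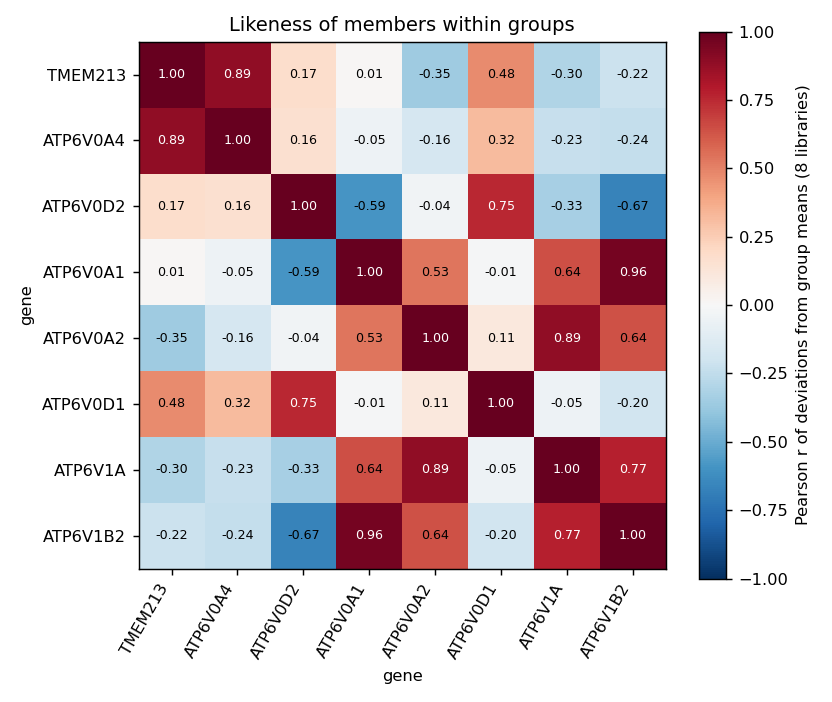
Pearson r (colour and number) between the 8 members with reads, from log2 CPM after subtracting the mean of each group, over 8 libraries. TMEM213 with ATP6V0A4 (0.89) and ATP6V0A1 with ATP6V1B2 (0.96) are the pairs most alike among the restricted and the ubiquitous genes.

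Over all 8 libraries, without removing the group means, the genes most like each restricted member were named by Pearson r of log2 CPM among those with a symbol and a mean of at least 1 CPM, the 9 members left out. TMEM213 and ATP6V0A4 were more like each other (r = 0.99) than like any gene named here. This r holds the large rise for which both were chosen, and their annotated spans overlap, so nothing is read from its size. With the group means removed it was 0.89. For TMEM213 the genes were CMPK2 (r = 0.98), PECR (r = 0.98) and SLC36A2 (r = 0.98), all higher in pregnancy. CMPK2 and PECR had log2 fold changes of 0.71 and 1.41, and SLC36A2, a proton-coupled amino acid transporter, went from 0.764 ± 0.808 to 53.5 ± 33.8 CPM. For ATP6V0A4 the genes were LIMK2 (r = 0.98), AMPD3 (r = 0.98) and CMPK2 (r = 0.98). LIMK2 changed little, from 101 ± 1.16 to 111 ± 3.55 CPM (log2 fold change 0.13). AMPD3, an AMP deaminase, went from 5.30 ± 0.840 to 15.4 ± 3.59 CPM (SD, n = 4 each). For ATP6V0D2 the genes were STARD10, NXN and PRDX3 (r = 0.97, 0.97 and 0.96), which had log2 fold changes of 0.05, 0.04 and 0.10. These r values describe likeness over 8 libraries of 4 mares and carry no test.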

How the data were processed

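The authors deposited raw read counts per NCBI Gene ID, 1 column per library, and a second table of scaled signal values. Per the submitters' processing notes, the tools included HISAT2 2.0.3 and Trimmomatic 0.32.2. The counting tool, gene annotation and build are not given in these sources. Tested on the values, the deposited signal table is TMM-scaled CPM of the 14037 genes with over 2 CPM in at least 2 libraries (100% of values within a relative tolerance of 1e-06); it was used for this check only. Of 24942 IDs, 21420 matched the RefSeq gene table. No sequence table or genome was given, so no sequence is shown and the planned promoter search was not run.

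Counts were fitted in R 4.3.3 with edgeR 4.0.16 (filterByExpr, minimum count 10; TMM; robust quasi-likelihood F-test; mare as block) over 15342 genes, with Benjamini-Hochberg adjustment; "rose", "fell" and "called" mean an adjusted p below 0.05. The SE is the log2 fold change divided by the square root of F. The block follows the design text, which pairs both biopsies of a mare; same-mare libraries deviated together (r 0.38 to 0.54, at most -0.02 between mares). Log2 CPM used a prior count of 2. Alternatives used DESeq2 1.42.0 and limma 3.58.1, among others. The fit was tested on simulated data. Every pair of libraries within a group differed by more than sampling noise (lowest chi-square per degree of freedom 24.6). With the mare as block, p-values for the state and for the mare test are judged against the same residual spread. edgeR moderates that spread with a trend over all genes, so it is not the spread of the pregnant minus cyclic differences among these mares alone. The SD of those log2 differences was 0.61 for TMEM213 and 0.51 for ATP6V0A4, beside a printed SE of 0.21 and 0.19. Biopsies were not repeated within a mare and state, as far as the labels say.

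The members and all gene lists were chosen with earlier results of these data known. Named were every member; per pump or acid-base list up to 4 called genes of smallest p, or the 2 most abundant; up to 2 called genes per cell type list, of which the report prints those beside a result; and the 3 genes most like each restricted member, other members left out. One gene that this rule names is not reported here. Genes named outside this rule were chosen after their values were seen: ATP6V1G3, ATP6V1E2, FOXI1, FOXI2, FOXI3, SLC4A1, TFCP2L1, HEPACAM2, CFTR, CSF1R, AIF1, CTSK, DCSTAMP, CALCR, OCSTAMP, CDX2, HAND1, AFP, TTR and the chromosomal neighbours. The same holds for APOA1, ROBO4, ADGRE1, CD68, MRC1, MMP9, RHCG, SLC26A4, CA2, STAP1 and INSRR. Ciliated markers held 1 riser of 13, against 8.53% of all genes.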

Additional observations from a re-analysis of the deposited data

Results flagged for a closer look

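ATP6V0D1 had 112 CPM in the cyclic library of mare 2, against 93.0 to 94.5 CPM in the other 3 cyclic libraries, so that the gap to the nearest library took up 0.917 of the group's whole range, more than Dixon's test allows for 4 samples. It was the 1 such library among 26 groups of values looked at, and chance gives about 1 in 20.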

How the results depend on the processing

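All 88 recomputed log2 fold changes of the 8 tested members kept their direction where called and stayed within 1 SD of the differences between mares. Those of TMEM213 ran from 4.49 to 4.96, of ATP6V0A4 from 3.39 to 3.76, of ATP6V0D2 from 0.32 to 0.53 and of ATP6V1A from -0.56 to -0.47. Of 776 recomputed values of 71 list genes, 738 kept their side of the threshold, 33 lost and 5 gained a call, and 0 called genes reversed. Without the mare as replicate block the counts of calls were 389 of all genes (2565 with it), 0 in place of 1 for V0 and accessory genes, 0 in place of 2 for assembly factors, 0 in place of 3 for intercalated cell genes, 2 in place of 5 for other transporters, 2 in place of 6 for lysosomal genes and 2 in place of 6 for members. DESeq2 called 1 V1 gene in place of 0. Leaving out 1 mare gave 1266 to 2057 calls over all genes (1266 without mare 1), 0 to 1 for V1, 0 to 1 for V0, 1 to 2 for assembly, 1 to 2 for intercalated cell genes, 4 to 6 for transporters, 3 to 6 for lysosomal genes, 3 to 6 for members and 2 to 5 for members differing between mares. The cause of these shifts was not tested, though a fit without 1 mare also has fewer samples. Read ratios kept their direction with 0 or 2 added and without any 1 mare. Depth limits TMEM213 and ATP6V0A4 in the cycle, where a library held as few as 4 and 15 reads. Scaling moved the median log2 fold change of all genes by under 0.1.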
